A study of Avena sativa with 6 samples.

Results

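The oat grain transcriptome held 156 genes for papain-like cysteine proteases and for legumains, also called vacuolar processing enzymes, among 136488 genes in all. They were chosen by annotation and not by expression: 117 genes whose protein family text names the peptidase C1 family (papain-like), and 39 genes assigned to the KEGG ortholog of legumain, with 0 genes in both sets. The study asked how much light on the ear adds to the weight and oil of the oat grain. RNA came from peeled grains of a high-oil cultivar, BY9 or Baiyan No.9. The ear-shaded group held 3 libraries from ears that were shaded for 4 days after flowering. Its comparison was the unshaded group, 3 libraries from the same cultivar with no shading of the ear. No other cultivar, time or organ was measured. Whether each library stands for a plant of its own is not stated, so p-values speak of the spread among these libraries alone, part of which may be technical.

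Papain-like proteases are endopeptidases of the vacuole, the endoplasmic reticulum and the cell wall, made as inactive precursors and held in check by small inhibitor proteins, the cystatins. In cereal grains they are best known for breaking down storage protein at germination, and in many plant tissues they act in programmed cell death. Legumains cut after asparagine residues in the vacuole. In rice endosperm a legumain cuts the glutelin precursor into its storage form, and in barley a legumain is made in the nucellus, the tissue around the embryo sac that dies early in grain development.

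Transcript levels are in FPKM, the fragments of a gene divided by its length and by the fragments of the whole library. Whole reads could not be recovered from these values, so sequencing depth is unknown. Library sums ran between 493004 and 561772 FPKM. Ear-shaded replicates 1 and 2 were the closest pair within a group, with a correlation of 0.989 over genes against 0.949 to 0.965 for the other pairs. Storage protein genes of the starchy endosperm were expressed in every library. A limma model of log2(FPKM + 1) was fitted to all genes that averaged 1 FPKM or more. Log2 fold changes below are ear-shaded minus unshaded on that scale, with their standard errors, and a gene is said to rise or fall where its p-value adjusted over all 58283 tested genes was under 0.05. Gene IDs are printed without the beginning AVESA.00010b.r2. that all but the MSTRG loci share. Oat is hexaploid and close copies can share reads, so the values of single copies are less certain than the sums over a subgroup.

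Among genes that averaged 1 FPKM or more, most papain-like genes rose in ear-shaded grains and legumain genes moved both ways. Of 73 tested members, 39 rose and 5 fell. Among all tested genes 42.4% rose and 21.5% fell. The 43 tested papain-like genes held 31 that rose (72.1%), 0 that fell and 12 that did not pass. The 30 tested legumains held 8 that rose (26.7%), 5 that fell (16.7%) and 17 that did not pass. The groups did not overlap in 29 papain-like genes, all higher in ear-shaded grains, against a background of 46.2% of tested genes. For legumains the groups did not overlap in 11 genes higher and 3 genes lower in ear-shaded grains, the second against a background of 24.0%. By size, 20 papain-like genes rose by a log2 fold change of 1 or more, and among legumains 7 rose and 4 fell by that much. Of all tested genes 16.3% rose and 10.4% fell by that much. In bulk tissue, fewer cells of a type and less RNA per cell cannot be told apart.

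The median log2 fold change was 0.99 over papain-like genes and 0.31 over legumains, beside 0.26 over all tested genes. Median-of-ratios scaling of the libraries moved the median of all genes to -0.02, that of papain-like genes to 0.62 and that of legumains to -0.03, so the direction of the legumain median turned. Under it 22 papain-like genes rose and 4 fell, and 7 legumains rose and 7 fell, while genes that rose made up 47.4% of all calls, against 66.4% in the deposited scale. Of all 58283 tested genes 16334 rose and 18140 fell under median-of-ratios scaling. Quantile normalization gave 26 rising and 3 falling papain-like genes, with 52.2% rising among all calls. Without a filter on low values, 32 of 117 papain-like genes rose and 4 fell, while 38730 of all 136488 genes rose and 17466 fell. The share of papain-like genes that rose was then near that of all genes, while the share that fell was lower. The papain-like median was then 0.062, near the 0.058 of all genes. The differences in the share that rose and in medians were thus seen only with the filter. Of the members as a whole, 11 fell under median-of-ratios scaling. The number that fell was 3 without ear-shaded replicate 1, without ear-shaded replicate 2 or without unshaded replicate 3, and 9 without unshaded replicate 2. Papain-like genes that fell numbered 1 without unshaded replicate 1 and 2 without unshaded replicate 2.

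**Figure D1:**
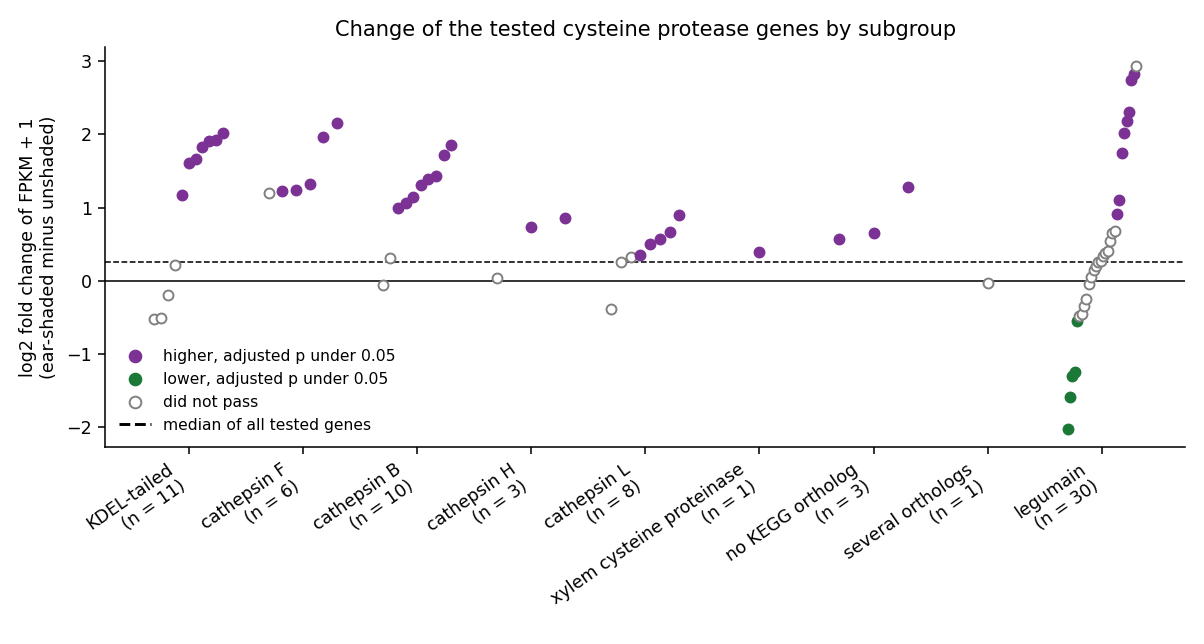
Log2 fold change of FPKM + 1 (ear-shaded minus unshaded) of the 73 tested members, 1 point per gene, by KEGG subgroup, with the median of all tested genes as a dashed line at 0.26. Filled points passed an adjusted p of 0.05: the papain-like subgroups hold 31 filled points above 0 and 0 below (22 and 4 under median-of-ratios scaling), and the legumains 8 above and 5 below (7 and 7 under that scaling).

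KDEL-tailed endopeptidases carried the most transcript of the papain-like genes. They keep a C-terminal retention signal of the endoplasmic reticulum, and in castor bean endosperm such an enzyme is stored in ricinosomes, bodies that release it as the cell dies. The annotation held 25 of these genes, of which 11 were tested. Of these 7 rose (63.6%, against 42.4% of all tested genes) and 4 did not pass. All 7 rising genes had groups that did not overlap, as had 46.2% of all tested genes in that direction. The count of 7 stood under each of the other settings run. Summed over the 25 genes, FPKM came to 860, 858 and 571 in the ear-shaded libraries, against 165, 388 and 215 in the unshaded libraries. Every ear-shaded library was thus above every unshaded one, 2.98-fold in the means, and an exact two-sided permutation test gave p = 0.1, the smallest that 3 against 3 libraries allow. Without unshaded replicate 2, the highest of its group, the ratio of the sums was 4.02. Under median-of-ratios scaling it was 2.24 with all libraries.

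The most abundant of them, 7AG1222330, had 263, 262 and 171 FPKM in the ear-shaded libraries, against 34.1, 120.5 and 50.4 FPKM in the unshaded libraries. Its groups did not overlap, although unshaded replicate 2 reached more than the other unshaded libraries. It rose 3.39-fold, a log2 fold change of 1.92 ± 0.43 (adjusted p = 0.00553), and 5.49-fold without unshaded replicate 2. By mean FPKM it ranked 69 among all genes in ear-shaded grains and 1119 in unshaded grains. It made up 30.4% of the subgroup's FPKM in ear-shaded grains and 26.7% in unshaded grains.

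A second abundant copy, 7DG1385230, was likewise lowest in ear-shaded replicate 3 and highest in unshaded replicate 2 within its groups, with 219.8, 222 and 130.02 FPKM in the ear-shaded libraries, against 30.5, 106 and 35.7 FPKM in the unshaded libraries. Its log2 fold change was 1.90 ± 0.46 (adjusted p = 0.00771), and its 3.32-fold rise became 5.77-fold without unshaded replicate 2. The next ID, 7DG1385220, had 80.7, 78.03 and 42.5 FPKM in ear-shaded grains, against 7.57, 30.7 and 14.5 FPKM in unshaded grains, and had the largest log2 fold change of the subgroup at 2.02 ± 0.46 (adjusted p = 0.00575). Without unshaded replicate 2 its ratio of means was 6.09, against 3.81 with it.

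The copy 5CG0926760 had a smaller spread between libraries. It had 127, 124 and 99.6 FPKM in the ear-shaded libraries, against 36.4, 44.5 and 29.1 FPKM in the unshaded libraries, with a wide gap between the groups and a log2 fold change of 1.66 ± 0.20 (adjusted p = 0.000258). Not every copy moved with these. A pair picked after their values were seen, 4DG0739760 and 4AG0595790, ran the other way among unshaded libraries. The first had 3.31, 3.01 and 6.18 FPKM in ear-shaded grains, against 9.06, 0.916 and 17.3 FPKM in unshaded grains. The second had 2.44, 2.82 and 6.07 FPKM in ear-shaded grains, against 6.04, 1.71 and 13.3 FPKM in unshaded grains. In both, unshaded replicate 2 was the lowest of all libraries and unshaded replicate 3 the highest, and neither passed (adjusted p = 0.568 and 0.440). Without unshaded replicate 2, the number of KDEL-tailed genes that fell was 2.

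**Figure D2:**
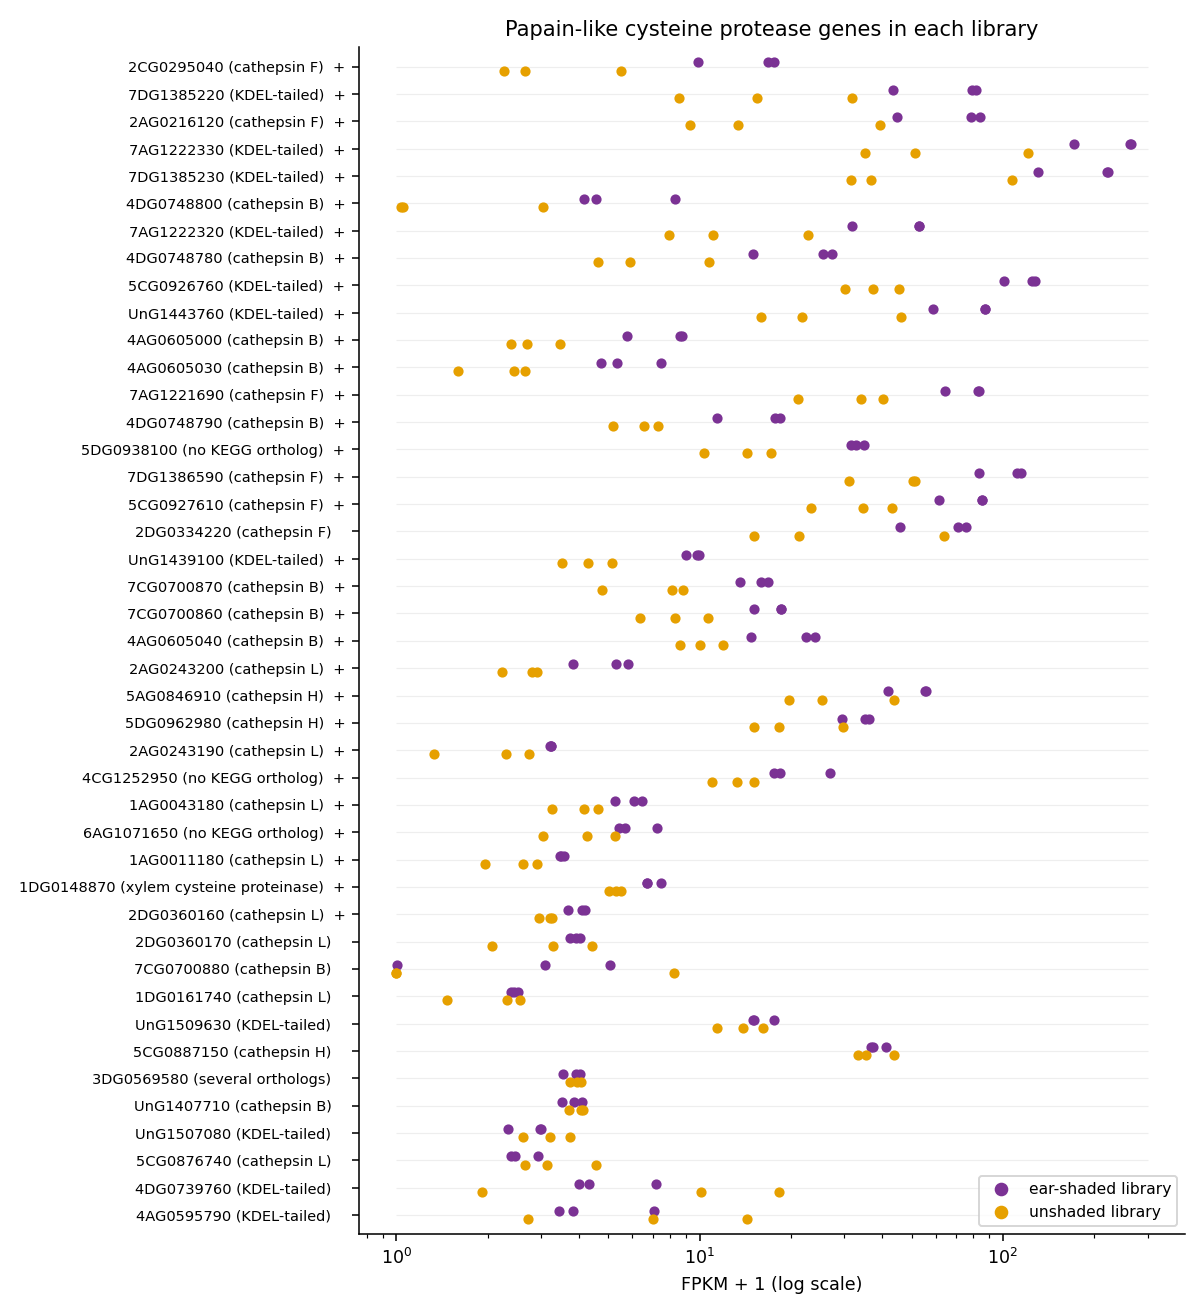
FPKM + 1 on a log axis of the 43 tested papain-like genes, 1 point per library, with ear-shaded libraries above unshaded ones in each row and genes sorted by log2 fold change. A plus marks the 31 genes that rose (22 under median-of-ratios scaling, with 4 that fell); the 7 KDEL-tailed and 8 cathepsin B genes that rose there have all their ear-shaded points to the right of their unshaded points.

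Genes under the KEGG ortholog of cathepsin F were all higher in ear-shaded grains among those tested, and all but 1 passed. In Arabidopsis their relatives include RD19, a vacuolar protease first found as a gene induced by drought. Of 10 genes 6 were tested, and 5 rose (83.3%, against 42.4% of all tested genes). In these 5 the groups did not overlap, as in 46.2% of all tested genes in that direction. The summed FPKM was 450, 445 and 304 in ear-shaded libraries, against 96.5, 238 and 151 in unshaded libraries, a 2.47-fold difference with no overlap (exact permutation p = 0.1, the smallest possible). Median-of-ratios scaling lowered the ratio to 1.86. The most abundant, 7DG1386590, had 114, 110.01 and 82.1 FPKM in ear-shaded libraries, against 29.98, 50.3 and 49.7 FPKM in unshaded libraries. The groups were well apart, and its log2 fold change was 1.24 ± 0.24 (adjusted p = 0.00270). Close to it in log2 fold change were 5CG0927610 at 1.23 ± 0.25 (adjusted p = 0.00342) and 7AG1221690 at 1.32 ± 0.25 (adjusted p = 0.00254), with means of 76.4 ± 13.6 and 75.9 ± 10.9 FPKM in ear-shaded grains, against 32.7 ± 10.04 and 30.8 ± 9.79 FPKM in unshaded grains (SD, n = 3 each).

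Larger ratios came from cathepsin F copies that were lower in unshaded grains. The copy 2CG0295040 had 16.6, 15.8 and 8.87 FPKM in the ear-shaded libraries, against 1.27, 4.52 and 1.66 FPKM in the unshaded libraries, and a log2 fold change of 2.15 ± 0.36 (adjusted p = 0.00126). Its ratio of means, 5.54, became 9.39 without unshaded replicate 2. For 2AG0216120 the values were 83.03, 77.6 and 43.6 FPKM in ear-shaded grains, against 8.33, 38.4 and 12.4 FPKM in unshaded grains. Its groups lay apart but the gap between ear-shaded replicate 3 and unshaded replicate 2 was small. Its log2 fold change was 1.97 ± 0.51 (adjusted p = 0.0101), and its ratio of means went to 6.58 without unshaded replicate 2, against 3.46 with it. The copy that did not pass, 2DG0334220, picked after its values were seen, had 62.8 FPKM in unshaded replicate 2, above the 44.8 FPKM of ear-shaded replicate 3 (adjusted p = 0.0636).

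Cathepsin B genes rose at lower levels. In Arabidopsis, cathepsin B enzymes of the vacuole take part in programmed cell death. Of 13 genes 10 were tested, 8 rose without overlap and 2 did not pass. The rising genes were 80.0% of those tested, against 42.4% of all tested genes, of which 46.2% were higher without overlap. The count of 8 stood under each library left out and each scaling. Their summed FPKM was 118, 124 and 85.1 in ear-shaded grains, against 39.4, 51.9 and 41.0 in unshaded grains, a 2.47-fold difference without overlap (exact permutation p = 0.1). Median-of-ratios scaling lowered this ratio to 1.86. The copy with the highest mean, 4AG0605040, had 21.4, 23.02 and 13.8 FPKM in ear-shaded libraries, against 8.99, 10.9 and 7.58 FPKM in unshaded libraries. Ear-shaded replicate 3 was the lowest of its group and still above the unshaded libraries, and the log2 fold change was 0.99 ± 0.21 (adjusted p = 0.00434).

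Larger ratios were seen in other cathepsin B copies. For 4DG0748780 the libraries gave 24.4, 26.3 and 13.97 FPKM in ear-shaded grains, against 3.62, 9.76 and 4.91 FPKM in unshaded grains, a log2 fold change of 1.71 ± 0.34 (adjusted p = 0.00305). The short gene model 4DG0748800, of 596 bases, had 3.14, 7.29 and 3.56 FPKM in ear-shaded grains, against 0.0512, 2.05 and 0.0350 FPKM in unshaded grains. Its log2 fold change was 1.85 ± 0.44 (adjusted p = 0.00732), and since unshaded replicate 2 held nearly all of the unshaded signal, the ratio of means was 6.56 with that library and 108 without it. The unshaded mean of this gene was under 1 FPKM, so only its ear-shaded values brought it past the filter. The copy 7CG0700860 had 17.5, 17.5 and 14.1 FPKM in ear-shaded grains, against 5.38, 7.31 and 9.65 FPKM in unshaded grains, a log2 fold change of 1.07 ± 0.20 (adjusted p = 0.00214). A pair of further cathepsin B copies that follow it in ID order was picked after their values were seen. The first, 7CG0700870, had 15.8, 14.9 and 12.6 FPKM in ear-shaded grains, against 3.75, 7.11 and 7.83 FPKM in unshaded grains, and rose by 1.14 ± 0.23 on the log2 scale (adjusted p = 0.00354). The second, 7CG0700880, had 0.00120, 2.08 and 4.06 FPKM in ear-shaded grains, against 7.25, 0 and 0 FPKM in unshaded grains. This copy was thus listed at 0 in 2 unshaded libraries and highest in the other unshaded library, and did not pass (adjusted p = 0.778).

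Cathepsin H genes had the smallest ratio of sums among the papain-like subgroups above 100 FPKM in ear-shaded grains. The subgroup is the family of aleurain, a vacuolar protease named after the aleurone of barley. Of 4 genes, 3 were tested and 2 rose, where 42.4% of all tested genes rose. The summed FPKM was 126, 126 and 109 in ear-shaded grains, against 65.6, 114 and 76.0 in unshaded grains. Unshaded replicate 2 exceeded ear-shaded replicate 3, so the groups overlapped (1.41-fold, exact permutation p = 0.2). The most abundant copy, 5AG0846910, had 54.5, 54.6 and 40.7 FPKM in ear-shaded libraries, against 18.6, 42.9 and 24.4 FPKM in unshaded libraries, and a log2 fold change of 0.85 ± 0.29 (adjusted p = 0.0320). For 5DG0962980 the values were 34.1, 35.1 and 28.5 FPKM in ear-shaded libraries, against 14.1, 28.7 and 17.3 FPKM in unshaded libraries, with a log2 fold change of 0.73 ± 0.25 (adjusted p = 0.0309). Both calls ended without ear-shaded replicate 1 (adjusted p = 0.0953 and 0.0882), without ear-shaded replicate 2 (0.0957 and 0.0938), without unshaded replicate 1 (0.0997 and 0.0983), without unshaded replicate 3 (0.0818 and 0.0803) and under median-of-ratios scaling (0.214 and 0.277). The copy 5CG0887150 had 36.3, 35.7 and 40.3 FPKM in ear-shaded grains, against 32.3, 42.7 and 34.3 FPKM in unshaded grains, and did not pass (adjusted p = 0.811).

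Genes under the ortholog of cathepsin L, a lysosomal endopeptidase of animals, were weakly expressed. Of 21 genes 8 were tested, 5 rose (62.5%, against 42.4% of all tested genes) and 3 did not pass. The count that rose was 1 without ear-shaded replicate 1, 2 without ear-shaded replicate 2, 2 without unshaded replicate 1 and 1 under median-of-ratios scaling. The summed FPKM was 25.1, 25.0 and 21.8 in ear-shaded grains, against 13.7, 21.8 and 22.1 in unshaded grains, with overlap (exact permutation p = 0.2). Its ratio of means, 1.25, turned to 0.957 under median-of-ratios scaling. The firmest rise was that of 2AG0243200, with 4.31, 4.79 and 2.81 FPKM in ear-shaded libraries, against 1.22, 1.91 and 1.81 FPKM in unshaded libraries, and a log2 fold change of 0.90 ± 0.19 (adjusted p = 0.00382). For 1AG0043180 the log2 fold change was 0.57 ± 0.16 (adjusted p = 0.0135; 0.0569 without ear-shaded replicate 1 and 0.171 under median-of-ratios scaling). The copy 2DG0360170 averaged 2.90 ± 0.154 FPKM in ear-shaded grains and 2.26 ± 1.18 FPKM in unshaded grains (SD, n = 3 each) and did not pass (adjusted p = 0.284; 0.0407, higher, without unshaded replicate 3).

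Few of the remaining papain-like genes were expressed. Xylem cysteine proteinases clear the contents of dying vessel cells in Arabidopsis. Here 1 of 6 was tested, 1DG0148870, and it had 6.43, 5.72 and 5.69 FPKM in ear-shaded libraries, against 4.30, 4.03 and 4.50 FPKM in unshaded libraries. These groups did not overlap, and the log2 fold change was 0.40 ± 0.11 (adjusted p = 0.0133; 0.0675 without ear-shaded replicate 1 and 0.6 under median-of-ratios scaling). Of 31 genes with no KEGG ortholog 3 were tested, and all 3 rose, where 42.4% of all tested genes rose. Among them, 5DG0938100 had 30.6, 31.8 and 33.9 FPKM in ear-shaded libraries, against 9.33, 16.3 and 13.3 FPKM in unshaded libraries, clear of each other, with a log2 fold change of 1.28 ± 0.19 (adjusted p = 0.000772). The copy 4CG1252950 had a log2 fold change of 0.66 ± 0.20 (adjusted p = 0.0200; 0.0698 without unshaded replicate 1 and 0.242 under median-of-ratios scaling). The last, 6AG1071650, was near the threshold, with a log2 fold change of 0.57 ± 0.21 (adjusted p = 0.0477). Its call ended without any of the libraries but unshaded replicate 3, with adjusted p-values between 0.0673 without ear-shaded replicate 1 and 0.144 without ear-shaded replicate 3. The 7 genes listed under several orthologs held 1 tested gene, 3DG0569580, whose annotation joins a subunit of the transcription factor TFIIH to the protease. It did not pass (adjusted p = 0.798; 0.0434, lower, under median-of-ratios scaling).

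**Figure D3:**
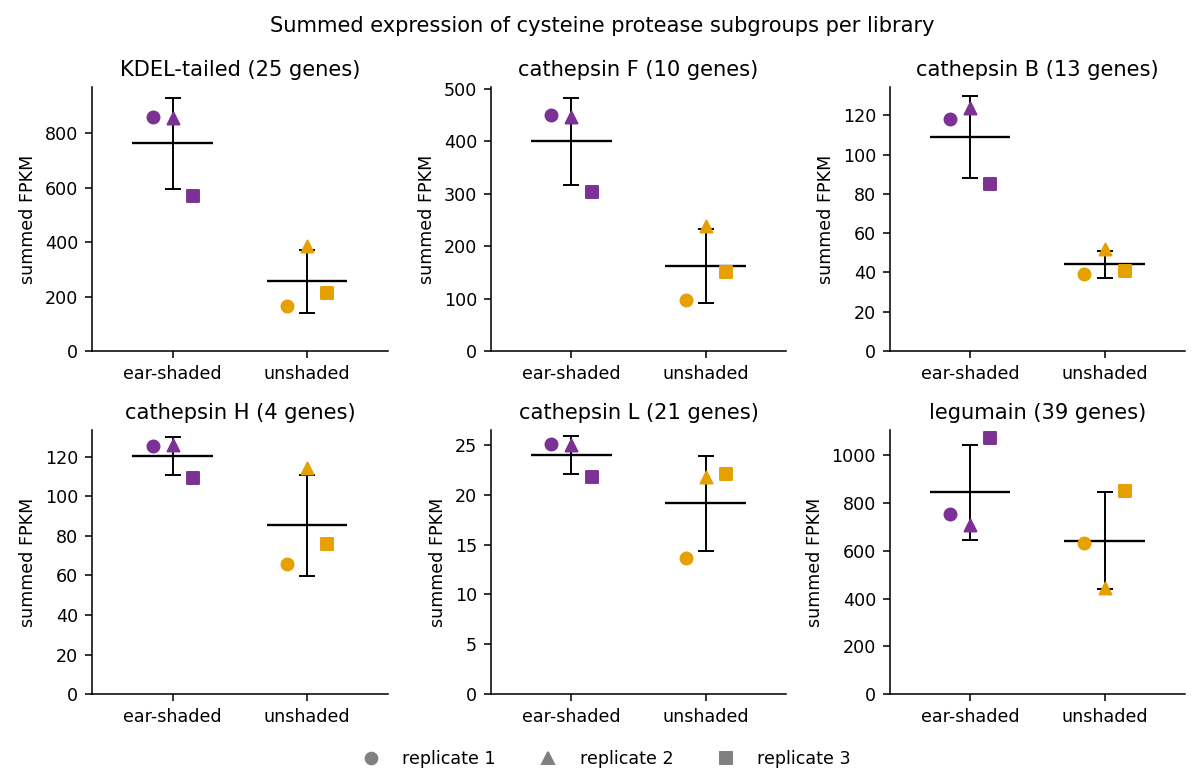
Summed FPKM of 6 subgroups, all genes of each subgroup included, with 1 point per library and the mean ± SD of the 3 libraries of a group. The KDEL-tailed, cathepsin F and cathepsin B sums of ear-shaded libraries all lie above those of the unshaded libraries, while cathepsin H, cathepsin L and legumain sums overlap (the cathepsin L ratio turns from 1.25 to 0.957 under median-of-ratios scaling).

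Legumain genes went down, went up or did not pass, copy by copy. The 5 that fell were 2DG0371500, 2AG0231990, 2DG0371510, 7DG1384460 and the locus MSTRG.17051. The firmest was MSTRG.17051, with 12.8, 11.7 and 14.1 FPKM in the ear-shaded libraries, against 62.5, 53.9 and 49.5 FPKM in the unshaded libraries. It fell by 2.02 ± 0.14 on the log2 scale, was 4.29-fold lower in mean FPKM (adjusted p = 4.17e-05), and ranked 7355 by mean FPKM in ear-shaded grains and 1390 in unshaded grains. Of like size was 2DG0371500, with 19.5, 18.7 and 30.8 FPKM in ear-shaded grains, against 78.5, 66.9 and 62.7 FPKM in unshaded grains. It fell by 1.58 ± 0.21 on the log2 scale (adjusted p = 0.000434). In 2AG0231990 the ear-shaded libraries held 15.2, 15.9 and 20.8 FPKM, against 48.03, 38.3 and 40.1 FPKM in the unshaded libraries, and it fell by 1.24 ± 0.16 on the log2 scale (adjusted p = 0.000415). The groups were far apart in all 3 of these genes, and their calls stood under every setting run.

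The other two falling copies were weak. The copy 2DG0371510 had 1.13, 1.33 and 1.85 FPKM in ear-shaded grains, against 3.24, 1.71 and 2.88 FPKM in unshaded grains. These groups overlapped. It fell by 0.55 ± 0.20 on the log2 scale (adjusted p = 0.0369) and did not pass without ear-shaded replicate 1 (0.124), ear-shaded replicate 2 (0.102), unshaded replicate 1 (0.119) or unshaded replicate 3 (0.0946). The copy 7DG1384460 had 0.0298, 0.308 and 1.48 FPKM in ear-shaded grains, against 1.27, 1.90 and 6.54 FPKM in unshaded grains, also with overlap. It fell by 1.30 ± 0.48 on the log2 scale (adjusted p = 0.0433) and did not pass without ear-shaded replicate 1 (0.137) or ear-shaded replicate 2 (0.113). Its ear-shaded mean was under 1 FPKM, so only its unshaded values brought it past the filter. Without a filter on low values it did not pass (adjusted p = 0.0872). Its ratio of means was 0.187, against 0.0521 without ear-shaded replicate 3 and 0.383 without unshaded replicate 3. The number of falling legumains was thus 3 without ear-shaded replicate 1, without ear-shaded replicate 2 or without unshaded replicate 3, and 7 without unshaded replicate 2.

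Legumain copies that rose were mostly low in unshaded grains. Among the 8 that rose the largest fold was that of 3AG0430620, a gene model of 777 bases, with 11.5, 10.9 and 12.3 FPKM in the ear-shaded libraries, against 0.639, 1.22 and 0.832 FPKM in the unshaded libraries. It was 12.9-fold higher, a log2 fold change of 2.74 ± 0.14 (adjusted p = 1.39e-05), the lowest adjusted p of the 73 tested members. Its unshaded mean was under 1 FPKM, so it was tested only because its ear-shaded values were high. Its neighbour in ID order, 3AG0430630, had 27.4, 27.1 and 26.4 FPKM in ear-shaded grains, against 15.6, 19.8 and 26.5 FPKM in unshaded grains, and did not pass (adjusted p = 0.0919; 0.0101, higher, without unshaded replicate 3). The copy 3DG0531870 had 21.2, 21.9 and 21.4 FPKM in ear-shaded grains, against 3.40, 6.88 and 7.73 FPKM in unshaded grains. It rose by 1.75 ± 0.24 on the log2 scale (adjusted p = 0.000548). The weaker copy 6CG1080780 had 10.3, 9.61 and 8.22 FPKM in ear-shaded grains, against 4.02, 3.17 and 4.35 FPKM in unshaded grains, and rose by 1.10 ± 0.14 on the log2 scale (adjusted p = 0.000361). In each of the rising copies 3AG0430620, 3DG0531870 and 6CG1080780 the groups were separate.

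Short loci were among the rising legumains. The locus MSTRG.79273, of 592 bases, had 37.4, 38.7 and 66.7 FPKM in ear-shaded grains, against 5.19, 2.91 and 11.1 FPKM in unshaded grains. It rose by 2.82 ± 0.40 on the log2 scale (adjusted p = 0.000613), with a ratio of means of 7.44, and 11.8 without unshaded replicate 3. The gene UnG1454700, of 517 bases, had 50.6, 52.6 and 75.3 FPKM in ear-shaded grains, against 9.37, 6.998 and 20.03 FPKM in unshaded grains, and rose by 2.31 ± 0.34 on the log2 scale (adjusted p = 0.000759). In both, ear-shaded replicate 3 was the highest library and the groups were apart. Gene models under 1000 bases made up 8 of the 30 tested legumains, of which 3 rose and 0 fell. Of the 22 longer ones 5 rose and 5 fell. Of all tested genes 42.4% rose and 21.5% fell, and the lengths were not tested against each other.

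A run of neighbouring IDs that begin with 7AG held rising copies and the legumain of the highest mean FPKM, 7AG1223890, which did not pass. The copy 7AG1223850 had 61.4, 18.9 and 63.6 FPKM in ear-shaded grains, against 6.80, 5.47 and 16.2 FPKM in unshaded grains, and rose by 2.18 ± 0.52 on the log2 scale (adjusted p = 0.00706), 5.06-fold with all libraries and 7.82-fold without unshaded replicate 3. The copy 7AG1223840 had 13.1, 41.6 and 40.7 FPKM in ear-shaded grains, against 7.37, 2.59 and 11.5 FPKM in unshaded grains, and rose by 2.02 ± 0.54 on the log2 scale (adjusted p = 0.0124). In each the lowest ear-shaded library came close to the highest unshaded one. The copies 7AG1223890 and 7AG1223880, the second a model of 423 bases, did not pass. The first had 101, 104 and 162 FPKM in ear-shaded grains, against 71.1, 47.8 and 128 FPKM in unshaded grains (adjusted p = 0.147; 0.0179, higher, without unshaded replicate 3). The second had 35.98, 42.5 and 84.98 FPKM in ear-shaded grains, against 69.4, 37.7 and 131 FPKM in unshaded grains (adjusted p = 0.418). Both overlapped between the groups.

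Neighbouring IDs that begin with 2AG, 2CG and 2DG also parted. In the first run 2AG0231990 fell, while its neighbours in ID order 2AG0231970 and 2AG0231980 did not pass, with means of 33.7 ± 5.38 and 46.6 ± 8.87 FPKM in ear-shaded grains, against 28.9 ± 13.98 and 33.7 ± 14.6 FPKM in unshaded grains (SD, n = 3 each). In the second run 2CG0311420 had 92.1, 90.2 and 126 FPKM in ear-shaded grains, against 59.4, 31.3 and 82.2 FPKM in unshaded grains. These groups did not overlap. It was the rising legumain of the highest mean and had the highest adjusted p of the 8, with a log2 fold change of 0.91 ± 0.34 (adjusted p = 0.0434). Its call ended without any library but unshaded replicate 3 (adjusted p from 0.0715 without unshaded replicate 1 to 0.124 without ear-shaded replicate 3) and under median-of-ratios scaling (0.197). Its neighbour 2CG0311430 had 59.8, 58.4 and 72.7 FPKM in ear-shaded grains, against 45.6, 23.1 and 57.2 FPKM in unshaded grains. These groups did not overlap, by a small margin, and it did not pass (adjusted p = 0.0880; 0.0255, higher, without unshaded replicate 3). In the third run 2DG0371500 and 2DG0371510 fell, and 2DG0371530 did not pass (adjusted p = 0.445; 0.0129, lower, without unshaded replicate 2).

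The other 10 tested legumains did not pass. They were 3CG0480910, 5CG0925060, 6AG1033700, 6DG1166490, 7DG1384430, 7DG1384440, 7DG1384450, UnG1489540, UnG1500460 and 7AG1223860. The last stood out, with 36.8, 0.0145 and 47.4 FPKM in ear-shaded grains, against 0.00161, 3.10 and 0.00617 FPKM in unshaded grains. It was near 0 in ear-shaded replicate 2 and in 2 unshaded libraries (adjusted p = 0.0959; 0.00106, higher, without ear-shaded replicate 2). Of the rest, 7DG1384430 was highest in replicate 3 of either group, with 1.15, 1.32 and 11.96 FPKM in ear-shaded grains, against 1.43, 1.37 and 6.39 FPKM in unshaded grains. The gene UnG1489540, a model of 330 bases, had 28.3, 27.5 and 30.5 FPKM in ear-shaded grains, against 20.1, 25.8 and 33.3 FPKM in unshaded grains. The copy 5CG0925060 averaged 6.11 ± 0.468 FPKM in ear-shaded grains and 9.35 ± 3.64 FPKM in unshaded grains (SD, n = 3 each). Its adjusted p was 0.121, and 0.00549, lower, without unshaded replicate 2.

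**Figure D4:**
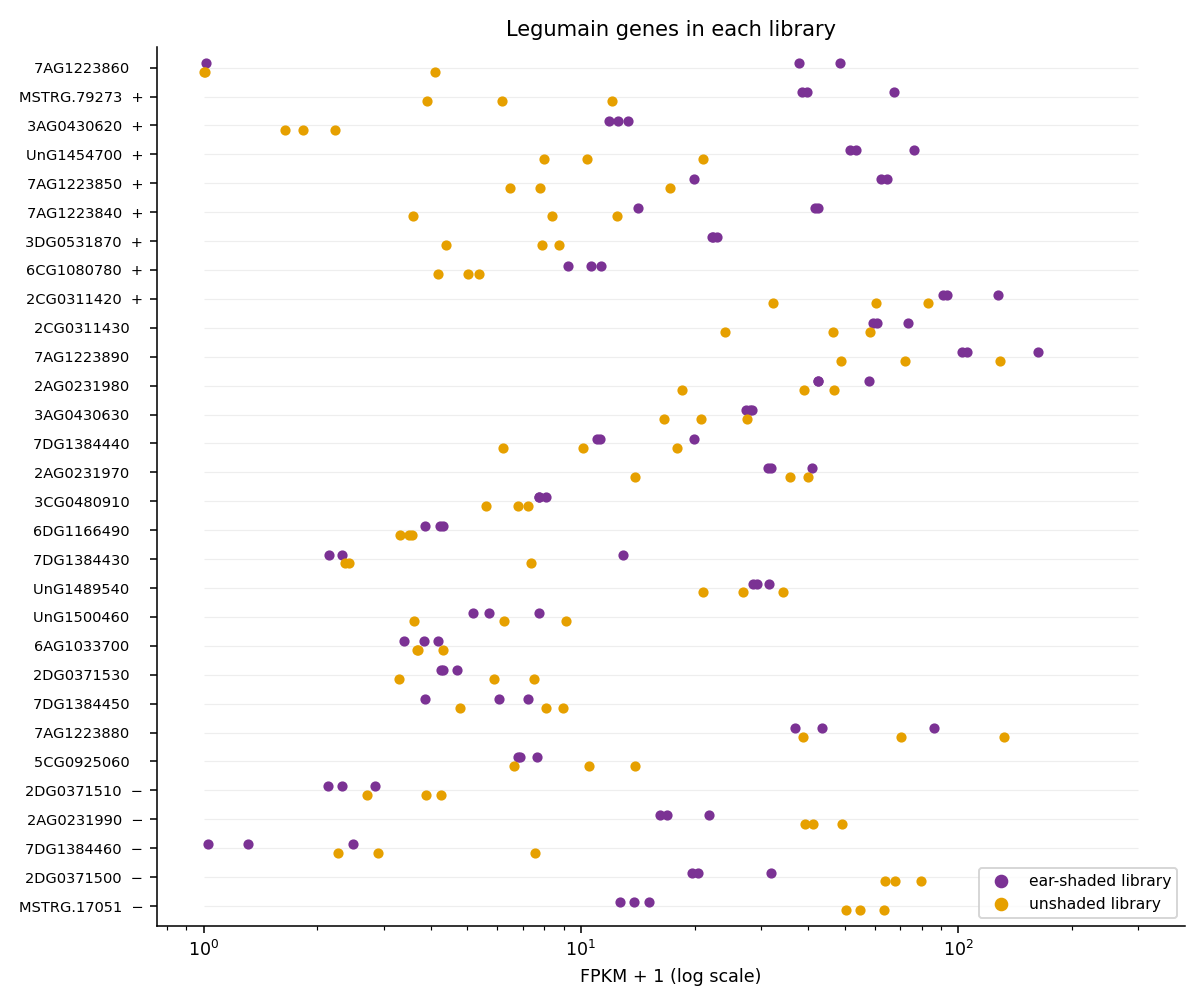
FPKM + 1 on a log axis of the 30 tested legumain genes, 1 point per library, with ear-shaded libraries above unshaded ones in each row and genes sorted by log2 fold change. A plus marks the 8 genes that rose and a minus the 5 that fell (7 and 7 under median-of-ratios scaling); MSTRG.17051, 2DG0371500 and 2AG0231990 stand apart to the left in ear-shaded grains.

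Summed over all 39 legumain genes, FPKM was 754, 707 and 1074 in ear-shaded libraries, against 632, 444 and 850 in unshaded libraries. The groups overlapped, and the ratio of means was 1.32 (exact permutation p = 0.4). Under median-of-ratios scaling it was 1.02. The sum of the 117 papain-like genes was 1646, 1645 and 1172 in ear-shaded libraries, against 412, 857 and 549 in unshaded libraries, 2.46-fold higher without overlap (exact permutation p = 0.1). Legumains thus held 31.4%, 30.1% and 47.8% of the FPKM of all 156 genes in ear-shaded grains, against 60.5%, 34.1% and 60.8% in unshaded grains. Unshaded replicate 2 lay within the ear-shaded range of this share.

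Within each group, 1 library took opposite places for most papain-like genes and most legumains. Ear-shaded replicate 3 was the lowest ear-shaded library for 28 of 43 papain-like genes and the highest for 25 of 30 legumains. Over all tested genes it was the lowest for 49.6% and the highest for 34.7%. Unshaded replicate 2 was the highest unshaded library for 27 of 43 papain-like genes, among them all 6 tested cathepsin F genes, and the lowest for 21 of 30 legumains. Not every papain-like subgroup followed this. Unshaded replicate 2 was the highest for 6 of 11 KDEL-tailed genes and the lowest for 5, and the highest for 3 of 8 cathepsin L genes. All 3 tested genes with no KEGG ortholog were highest in ear-shaded replicate 3, like most legumains. Over all tested genes it was the highest for 32.0% and the lowest for 36.8%. Genes of 1 library share its preparation and are not independent, and what set these libraries apart was not tested.

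Cystatins, the inhibitors of papain-like proteases, held genes that rose and genes that fell. Of 58 genes, 39 were tested, 7 rose (17.9%, against 42.4% of all tested genes) and 9 fell (23.1%, against 21.5%), with a median log2 fold change of 0.04 (-0.33 under median-of-ratios scaling, with 2 that rose and 14 that fell). Under that scaling 16334 of all 58283 tested genes rose and 18140 fell. Cystatins that rose numbered 4 of 40 without ear-shaded replicate 1 and 4 of 39 without ear-shaded replicate 2. Without unshaded replicate 2 they numbered 16 of 38. All genes that rose in these settings numbered 18947 of 57081, 18904 of 57018 and 23168 of 59065. Without unshaded replicate 2 the share of cystatins that rose was thus not below that of all genes. The summed FPKM of cystatins was 614, 623 and 775 in ear-shaded grains, against 644, 1152 and 830 in unshaded grains (exact permutation p = 0.2). The most abundant, 1DG0134000, had 38.9, 40.7 and 92.3 FPKM in ear-shaded libraries, against 36.0, 87.9 and 50.4 FPKM in unshaded libraries, and did not pass (adjusted p = 0.935).

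Other protease lists differed in their counts. Among all tested genes 42.4% rose and 21.5% fell (16334 and 18140 of 58283 under median-of-ratios scaling). Aspartic proteases, the family of barley phytepsin, held 58 of 100 tested genes that rose and 12 that fell, with a median of 0.87. Their summed FPKM was 1764, 1787 and 1636 in ear-shaded grains, against 703, 1029 and 966 in unshaded grains, 1.92-fold higher (exact permutation p = 0.1). In 1DG0152230, among the 2 most abundant genes of the list, the libraries had 189.8, 192 and 95.4 FPKM in ear-shaded grains, against 21.1, 118 and 32.9 FPKM in unshaded grains (adjusted p = 0.0299), and unshaded replicate 2 exceeded ear-shaded replicate 3. The other of the 2, 1AG0035540, averaged 138 FPKM in ear-shaded grains and 91.6 FPKM in unshaded grains and did not pass (adjusted p = 0.0565). Serine carboxypeptidases, which trim proteins from the C-terminal end, held 33 of 79 that rose (41.8%) and 16 that fell (20.3%), near the shares of all genes. Subtilases, serine proteases mostly of the cell wall, held 7 of 21 that rose (33.3%, below the 42.4% of all tested genes) and 0 that fell. The count that rose was 4 without ear-shaded replicate 3 or without unshaded replicate 1, and under median-of-ratios scaling 2 rose and 3 fell. Vacuolar sorting receptors, which carry proteins such as aleurain to the vacuole, held 3 of 10 that rose (30.0%) and 3 that fell (5 that fell under median-of-ratios scaling). Among them 5DG1000440 had 15.1, 14.9 and 10.7 FPKM in ear-shaded grains, against 4.72, 6.44 and 5.77 FPKM in unshaded grains (adjusted p = 0.000763). The more abundant 6AG1060290 averaged 20.4 FPKM in either group and did not pass (adjusted p = 0.973).

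**Figure D5:**
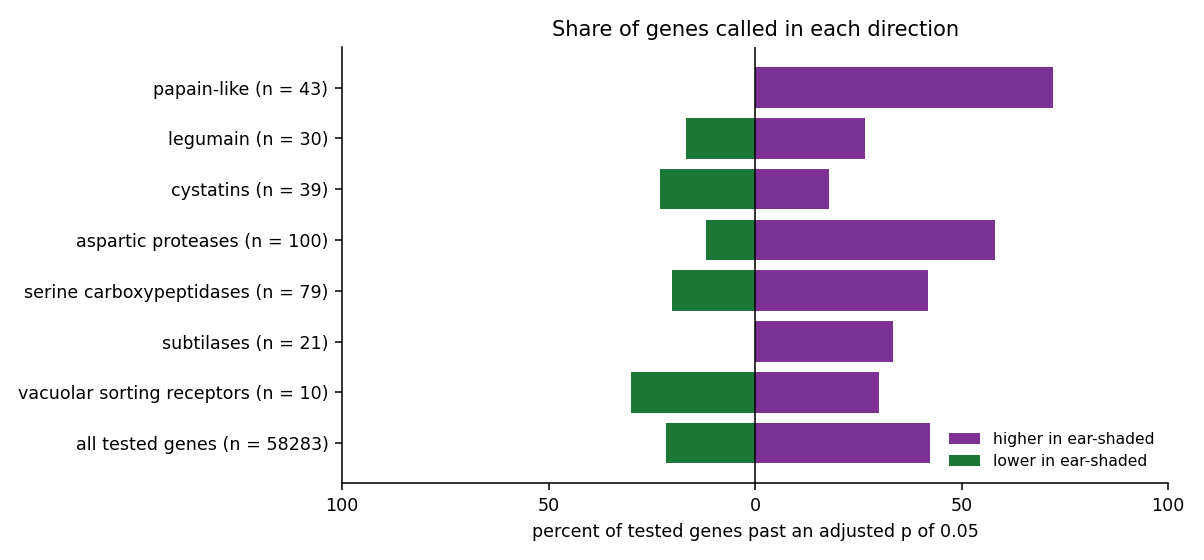
Percent of tested genes that passed an adjusted p of 0.05, with genes higher in ear-shaded grains to the right of 0 and lower ones to the left, for papain-like genes, legumains, 5 related lists and all 58283 tested genes. Papain-like genes reach 72.1% on the right and 0% on the left, against 42.4% and 21.5% for all genes. Under median-of-ratios scaling 22 of 43 papain-like genes rose and 4 fell, against 16334 and 18140 of all 58283 tested genes.

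Marker genes of several tissues moved with the shading, while among all tested genes 42.4% rose and 21.5% fell. Of 90 tested starchy endosperm genes for storage proteins 72 fell and 0 rose, and their summed FPKM lay between 5848 and 9254 in ear-shaded libraries, against 19032 to 38867 in unshaded libraries. Of 46 tested light-harvesting genes, markers of green tissue such as the pericarp, 45 rose, with sums between 607 and 757 in ear-shaded libraries, against 19.4 to 28.6 in unshaded libraries. All 5 tested oleosins, the coat proteins of oil bodies in aleurone and embryo, fell, with sums between 7.05 and 7.61 in ear-shaded libraries, against 18.2 to 32.0 in unshaded libraries. Alpha-amylases, made by the aleurone at germination, held 3 of 10 that rose and 1 that fell, with sums between 21.2 and 40.6 in ear-shaded libraries, against 9.02 to 28.9 in unshaded libraries. No list was at 0 in any library. The part that the make-up of the tissue has in the protease differences was not tested.

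Most of the family had little transcript in these grains. Of the 156 genes 83 stayed under a mean of 1 FPKM and were not tested. The highest of them had a mean of 0.788 FPKM, and 50 were below 0.1 FPKM. Among the 83, 23 were listed at 0 in all 3 unshaded libraries, 8 in all 3 ear-shaded libraries and 0 in all 6. In the authors' deposited table, 21 of the 156 members (13.5%) were marked up and 12 (7.69%) down, against 13.4% and 12.9% of all genes in it. Papain-like genes held 14 of 117 marked up and 8 down, of which 11 and 1 were tested here. Legumains held 7 up and 4 down. Cathepsin L genes had 0 up and 5 down, and cathepsin F genes 1 up and 2 down. KDEL-tailed genes had 6 up and 0 down, and cathepsin B genes 4 up and 0 down. Of the 39 members that rose here the authors' deposited table marked 17 up, of the 5 that fell it marked 4 down, and it marked 0 in the opposite direction. The marks went with a limit on size that the calls here did not have. Among marked members the smallest deposited log2 fold changes were 1.003 up and -1.002 down. Unmarked 6CG1080780, for example, had a deposited log2 fold change of 0.904 and a deposited adjusted p of 9.55e-06. A member without a mark may thus still have a low adjusted p there.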

How the data were processed

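RNA of peeled grains of the oat cultivar BY9 was measured in 3 libraries from ear-shaded and 3 from unshaded ears, as the treatment label states. The labels' protocols describe Trizol extraction and random-primed cDNA libraries from an Illumina kit, yet name a PacBio instrument, so the platform is not settled. The submitters' processing notes list HISAT2 and StringTie with no version. The build, the strand setting and the authors' statistical tool were not given in the sources used here. Of the 156 members 2 are MSTRG loci, and the others have AVESA IDs.

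FPKM of every gene in each library were computed by the authors and deposited with gene length. The deposited table also holds the authors' log2 fold change, their p-value, raw and adjusted, and their mark up or down. These were used here only to count the marks and to say how the marks differ from the calls. A search for whole reads behind low FPKM found, at best, between 16.7% and 19.4% of them no more than 0.05 from whole numbers, so depth is unknown and intervals from counts cannot be given. FPKM of a library share 1 total and so depend on its most abundant genes.

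The 58283 of 136488 genes that averaged 1 FPKM or more in the 6 libraries were tested on log2(FPKM + 1), which understates changes of low genes, with limma 3.58.1 in R 4.3.3, eBayes with a trend, two-sided, Benjamini-Hochberg adjustment over all tested genes and a threshold of 0.05. Fold changes are ratios of mean FPKM, ear-shaded over unshaded. Sums over subgroups include untested genes and were compared by an exact two-sided permutation test. The fit was run on simulated data with 200 of 58283 genes changed. In the real data 37227 genes passed, so that run does not show how the fit behaves under changes so widespread. Figures were drawn in Python 3.11.

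Members were split by KEGG ortholog. Those named are all tested legumains, and in each other subgroup the 3 tested genes highest in mean FPKM plus at most 2 called genes per direction of the largest change, if they averaged 2 FPKM or more. For other lists the 2 genes of the highest mean could be named. Other genes are named as picked after their values were seen. Lists were matched on annotation text; metacaspases matched 0 genes. The pattern for alpha-amylases was narrowed to the KEGG ortholog after descriptions had been read, because the text also matched inhibitors and transcription factors. The members and lists were chosen with earlier results of these data known. Replicate numbers shared between groups did not pair the libraries. No genome or sequence table was used, so positions and sequences are not given.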

Additional observations from a re-analysis of the deposited data

How the results depend on the processing

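Of 34 named members that rose or fell, 25 kept the call under all the settings run for them, 9 lost it under at least 1 setting and 0 turned direction. With the replicate number as a block, which did not pair the libraries (correlations of deviations of -0.0523, -0.0461 and -0.147 for equal numbers), 39 members rose, 5 fell and 33446 genes passed in all, against 37227; 2 subtilases fell. Calls of named members were lost by 6 without a filter, 1 at 5 FPKM, 1 with a pseudocount of 0.1, 7 with median-of-ratios scaling, 3 with quantile normalization, 2 with equal sums, 7 with ear-shaded replicates 1 and 2 averaged and 2 to 8 with a library left out. No setting changed the count of 7 rising KDEL-tailed genes. The cause of the changes below was not tested, except that a filter at a mean of 5 FPKM leaves fewer genes and no filter adds genes. Members that fell numbered 5; 3 with the filter at 5 FPKM, 11 with median-of-ratios scaling, 9 with quantile normalization, 3 with equal sums, 3 with ear-shaded replicates 1 and 2 averaged, 0 by protein family text alone, and 3 to 9 with a library left out. All genes that passed numbered 56196 without a filter and 12567 at 5 FPKM. Papain-like genes that fell numbered 4 without a filter, 4 with median-of-ratios scaling, 3 with quantile normalization and 0 to 2 with a library left out. Legumains that fell numbered 3 without a filter, at 5 FPKM, with equal sums and with replicates averaged, and 3 to 7 with a library left out. KDEL-tailed genes that fell numbered 1 under median-of-ratios scaling and quantile normalization and 0 to 2 with a library left out. Of cathepsin F genes 3 fell without a filter. Of cathepsin B genes 5 rose at 5 FPKM, and 1 fell under median-of-ratios scaling and quantile normalization. Cathepsin L genes that rose numbered 0 at 5 FPKM, 1 under median-of-ratios scaling, quantile normalization or averaging, and 1 to 6 with a library left out; 1 fell without a filter, under median-of-ratios scaling and quantile normalization, and 0 to 1 with a library left out. Cystatins that rose numbered 2 under median-of-ratios scaling, 4 with averaging and 4 to 16 with a library left out; 14 fell under median-of-ratios scaling. Aspartic proteases that rose numbered 31 at 5 FPKM; 20 fell without a filter and 4 at 5 FPKM. Of serine carboxypeptidases 12 rose and 1 fell at 5 FPKM. Subtilases that rose numbered 12 without a filter, 1 at 5 FPKM, 2 under median-of-ratios scaling, 4 under quantile normalization and 4 to 7 with a library left out; 1 fell without a filter, 3 under median-of-ratios scaling and quantile normalization and 0 to 3 with a library left out. Of vacuolar sorting receptors 1 fell at 5 FPKM and 5 under median-of-ratios scaling and quantile normalization. Under median-of-ratios scaling the ratio of summed FPKM was 1.43 over all members, against 1.87, and 1.86 for cathepsin B, against 2.47. Directions turned only in members that did not pass. Under median-of-ratios scaling log2 fold changes were -0.035 for 2AG0231970, -0.067 for 3CG0480910, -0.34 for 5CG0887150, -0.034 for 6DG1166490, -0.047 for 7DG1384430, -0.23 for UnG1489540 and -0.27 for UnG1500460. Quantile normalization gave -0.049 for 7DG1384430 and -0.18 for UnG1500460, and equal sums gave 0.066 for 3DG0569580 and 0.061 for 6AG1033700. With a library left out, log2 fold changes ranged between -0.14 and 0.62 for 2AG0231970, -0.59 and 0.0074 for 2DG0371530, -0.0711 and 0.018 for 3DG0569580, -0.035 and 0.16 for 5CG0887150, -0.11 and 0.043 for 6AG1033700, -0.65 and 0.74 for 7DG1384430, -0.030 and 0.32 for UnG1489540, and -0.31 and 0.36 for UnG1500460. Depth is unknown, so what it limits could not be measured, and for genes near 1 FPKM the pseudocount of 1 understates changes.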

Other observations

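Ear-shaded replicates 1 and 2, the closest pair of libraries over all genes, differed by neighbouring legumain IDs in opposite directions. The copy 7AG1223840 had 13.1 FPKM in ear-shaded replicate 1 and 41.6 FPKM in ear-shaded replicate 2. The copy 7AG1223850 had 61.4 FPKM in the first and 18.9 FPKM in the second, and 7AG1223860 had 36.8 FPKM in the first and 0.0145 FPKM in the second. Replicate 3 of the ear-shaded group had 40.7, 63.6 and 47.4 FPKM for these copies, and the unshaded libraries had at most 11.5, 16.2 and 3.10 FPKM. Among cathepsin B genes, 7CG0700880 was likewise above 2 FPKM in 3 libraries and at or below 0.0012 FPKM in the others.

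By the letter in their IDs, which was not checked against a genome, 16 of 25 tested members with an A rose (64.0%) and 1 fell. Of 14 with a C, 8 rose (57.1%) and 0 fell. Of 24 with a D, 11 rose (45.8%) and 3 fell. Of all tested genes with these letters, 44.5%, 44.3% and 44.7% rose and 17.7%, 17.0% and 17.3% fell, and the letters were not tested against each other.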
